A study of Mus musculus with 10 samples.

Results

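The genes described here are 33 genes of cholesterol and fatty acid synthesis, taken by symbol from a list and each matched to 1 gene among the 48476 genes of the count table. They comprise 17 enzymes of the cholesterol pathway, 5 genes that control the pathway or carry sterols, and 11 genes that make, lengthen, desaturate or activate fatty acids. RNA was taken from mouse embryonic fibroblasts (MEFs) of strain CBA/CaJ X C57BL/6J, isolated from E13.5 embryos and sampled while they were being reprogrammed towards pluripotency. The fibroblasts carried an Oct4-GFP reporter, as described in the methods. All cells were infected with retroviruses, made in PlatE packaging cells, for Oct4, Klf4 and Sox2 (OKS), and were then cultured in iCD1, a reprogramming medium. The control arm also received DsRed, a red fluorescent protein (OKS + DsRed, labelled DR), and the other arm received the forkhead transcription factor FoxO6 (OKS + FoxO6). Both arms were sampled at days 0, 1, 3, 5 and 7, with 1 library for each arm and day, which makes 10 libraries and leaves every arm and day without a replicate. The sources do not say whether day 0 was collected before or after the change to iCD1 medium, nor whether the 5 days of an arm came from 1 infected culture.

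Cholesterol is built from acetyl-CoA through mevalonate, isoprenoid units and squalene, which is folded into lanosterol and then trimmed to cholesterol, and fatty acids are built from acetyl-CoA by way of malonyl-CoA. Both routes are controlled by the SREBP transcription factors, which are made from Srebf1 and Srebf2 and are held in the endoplasmic reticulum by INSIG proteins when sterols are plentiful. SREBPs bind sterol regulatory elements in promoters, commonly beside NF-Y boxes, and proliferating cells use both routes to make membranes.

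RefSeq promoters on GRCm38.p6, which run from 250 bases before to 50 bases after an annotated start, were found for 26 of the 33 genes, and 4 are printed here as examples. Each line gives the 250 bases before the start of Hmgcs1, Idi1 and Lss, which were called lower at day 1 than at day 0, and of Hsd17b7, the 1 gene called higher with FoxO6. Hmgcs1 also holds the 1 sterol regulatory element found. Capitals mark matches to TCACNCCAC, a sterol regulatory element, or to CCAAT, the NF-Y box, on either strand.
Hmgcs1, chr13:119690101-119690350, plus strand: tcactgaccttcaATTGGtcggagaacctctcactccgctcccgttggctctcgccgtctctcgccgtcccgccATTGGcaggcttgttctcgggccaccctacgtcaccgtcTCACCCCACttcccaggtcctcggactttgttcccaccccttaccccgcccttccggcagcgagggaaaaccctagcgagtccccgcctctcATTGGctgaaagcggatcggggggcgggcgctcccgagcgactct
Idi1, chr13:8885356-8885605, plus strand: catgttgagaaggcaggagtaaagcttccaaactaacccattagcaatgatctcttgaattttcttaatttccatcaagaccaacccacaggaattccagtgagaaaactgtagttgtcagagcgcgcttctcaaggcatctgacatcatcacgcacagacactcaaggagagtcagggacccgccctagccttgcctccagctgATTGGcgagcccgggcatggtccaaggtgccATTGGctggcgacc
Lss, chr10:76531355-76531604, plus strand: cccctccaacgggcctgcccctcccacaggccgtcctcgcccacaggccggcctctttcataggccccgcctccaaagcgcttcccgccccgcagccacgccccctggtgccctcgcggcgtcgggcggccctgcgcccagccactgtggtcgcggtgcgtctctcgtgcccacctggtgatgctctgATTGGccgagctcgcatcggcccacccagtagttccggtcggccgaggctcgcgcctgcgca
Hsd17b7, chr1:169969206-169969455, minus strand: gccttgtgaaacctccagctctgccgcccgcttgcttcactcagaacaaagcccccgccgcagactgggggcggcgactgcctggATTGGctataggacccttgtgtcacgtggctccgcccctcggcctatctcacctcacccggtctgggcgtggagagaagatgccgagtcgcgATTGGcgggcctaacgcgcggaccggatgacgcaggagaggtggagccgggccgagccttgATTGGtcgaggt
Of these 4 genes, Hmgcs1 alone held TCACNCCAC, with its first base 137 bases before the start, and all 9 NF-Y boxes printed read ATTGG on the gene's strand. The NF-Y box CCAAT was found in the promoters of 22 of the 26 genes (84.6%), against 41.1% of all 27025 genes with a promoter and 37.4% of all 32851 promoters. The sterol regulatory element was found in 1 of 26 (3.85%), against 1.44% of all genes and 1.24% of all promoters. The forkhead motif GTAAACA was found only in Elovl6 among the 26 (3.85%), against 4.05% of all genes and 3.65% of all promoters. Both strands were searched, and no base of the 26 genes' promoters lay in matches to more than 1 of these motifs. Stard4, Fads1, Fdft1, Sqle, Fdps, Scd1 and Scd2 had no entry in the promoter table.

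**Figure D1:**
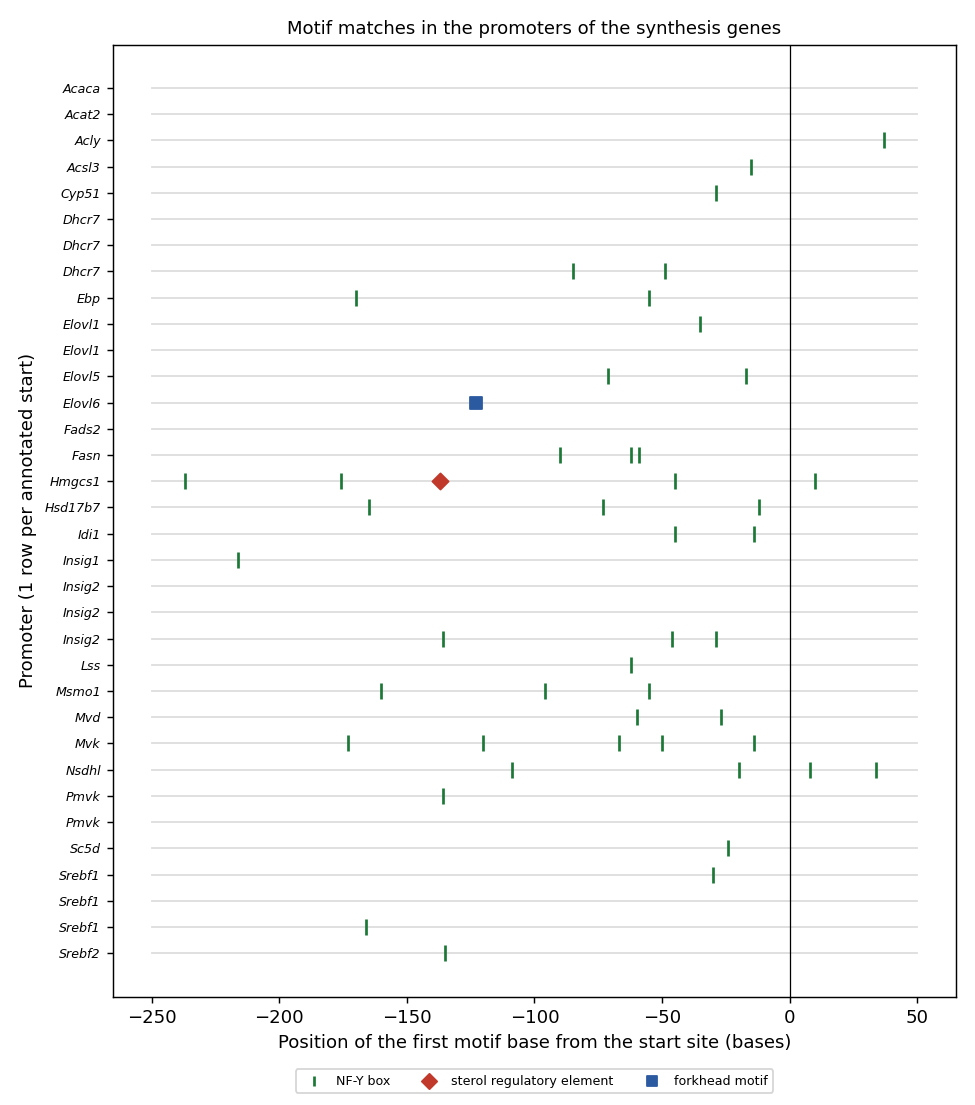
Position of each motif match in the promoters of the 26 genes with a RefSeq promoter, with 1 row per annotated start and the horizontal axis in bases from the start site (vertical line at 0). Green bars are NF-Y boxes, found in 22 of 26 genes, the red diamond is the sterol regulatory element of Hmgcs1, and the blue square is the forkhead motif of Elovl6.

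The libraries held between 1208379 and 2225750 expected counts (estimated reads per gene), with a median of 1601151. Levels are given in TPM, the share of transcripts in a library after scaling to transcript length, and tests used the expected counts. Foxo6 itself was at 0.61 to 2.29 TPM in the 5 OKS + DsRed libraries and at 762 to 1356 TPM in the 5 OKS + FoxO6 libraries, day 0 included. The summed level of 8 fibroblast markers was 3999 TPM at day 0 and 609.8 TPM at day 7 in OKS + DsRed, and 3622 and 1087 TPM in OKS + FoxO6, so it was lower at day 7 in both arms. A level in bulk RNA does not separate fewer cells of a type from less RNA per cell. In the read length profile, OKS + DsRed at day 0 and OKS + FoxO6 at day 7 stood apart: the median read came from a transcript of effective length 2554 and 2387 bases, against 2674 to 2783 bases in the other 8 libraries. Tests of the 33 genes on day 0 and day 7 are given with and without these libraries, and for other genes the calls lost without them are named. Differences on single days cannot leave a library out. They are also given with the length trend removed, an alternative chosen after seeing the data.

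All 33 genes passed the filter on low counts and were tested. Their mean level over the 10 libraries ran from 26.7 TPM for Insig2, an SREBP retention protein, to 692 TPM for Scd2, a stearoyl-CoA desaturase, with a median of 101.7 TPM. The lowest expected count of any of them in a library was 22, for Insig2. At day 0 the 17 cholesterol enzymes had a median of 185 TPM in OKS + DsRed and 121 TPM in OKS + FoxO6, and at day 7 the medians were 66.7 and 69.6 TPM. The 11 fatty acid genes had medians of 171.5 and 137 TPM at day 0 and 109 and 95.2 TPM at day 7. The 5 regulators had medians of 108.8 and 77.6 TPM at day 0 and 116.9 and 96.2 TPM at day 7, and their lowest median was at day 1 in OKS + DsRed and at day 0 in OKS + FoxO6.

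**Figure D2:**
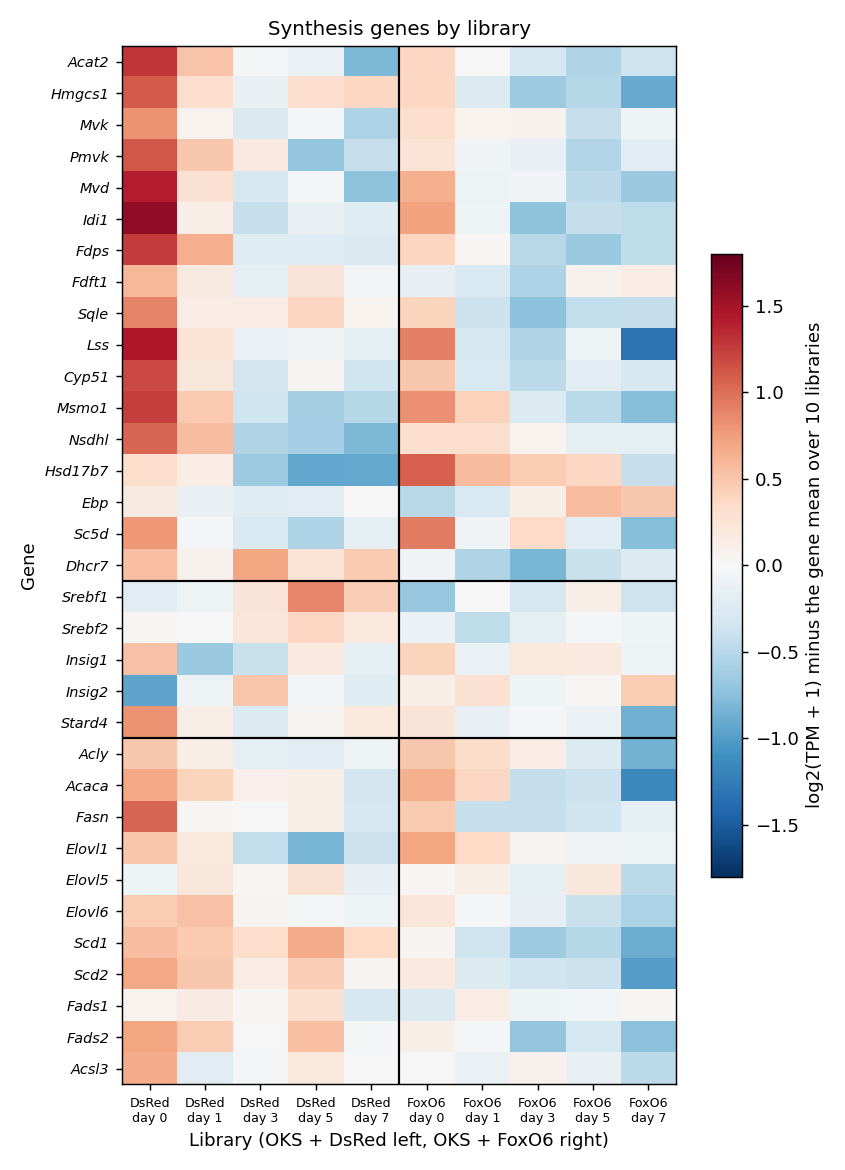
Level of each of the 33 genes (rows, grouped as cholesterol enzymes, regulators and fatty acid genes) in each of the 10 libraries (columns), as log2(TPM + 1) minus the gene's mean over the libraries. The OKS + DsRed day 0 column is the reddest, and 21 genes had day 0 as their highest day in both arms.

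The first comparison asked whether expression differed with FoxO6 over the whole time course. Of the 33 genes, 12 were lower with FoxO6 than with DsRed and 1 was higher, over a background of 7.13% of the 10977 genes tested called lower and 6.93% called higher. The median log2 fold change of the 33 genes was -0.34, against -0.02 over all genes tested, and 27 of 33 values were below 0. The test was edgeR's quasi-likelihood test on counts, with a day term and p-values adjusted by Benjamini-Hochberg over all genes tested, and a gene was called at an adjusted p under 0.05. With 1 library per arm and day, it measures a shift shared by the 5 days against how that shift varied from day to day, so it describes these 2 courses and not independent infections. By level alone, 12 genes had a lower TPM with FoxO6 on all 5 days, against 8.58% of the 14837 genes with a mean of at least 1 TPM. These 12 were Hmgcs1, Idi1, Fdps, Sqle, Lss, Dhcr7, Srebf2, Acaca, Elovl6, Scd1, Scd2 and Fads2. Idi1 (log2 fold change -0.42, SE 0.15, adjusted p = 0.0872) and Srebf2 (log2 fold change -0.35, SE 0.11, adjusted p = 0.0527) were among them but missed the threshold.

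Among the 17 cholesterol enzymes, 5 were lower with FoxO6, 1 was higher and 11 were not called, with a median log2 fold change of -0.34. Hmgcs1 (ENSMUSG00000093930, chromosome 13 of GRCm38, 119690379 to 119708260, plus strand) makes HMG-CoA, the precursor of mevalonate. Its level was 300.2, 171, 126, 172 and 179 TPM at days 0, 1, 3, 5 and 7 in OKS + DsRed and 179, 117, 88.0, 96.5 and 73.2 TPM in OKS + FoxO6. The FoxO6 library was the lower on every day, and the fitted difference was 1.75-fold (log2 fold change -0.81, SE 0.12, adjusted p = 0.00181). The FoxO6 range (73.2 to 179 TPM) overlapped the DsRed range (126 to 300.2 TPM).

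Dhcr7 (ENSMUSG00000058454, chromosome 7 of GRCm38, 143823145 to 143848410, plus strand), the reductase that ends one branch of the pathway, was at 82.1, 59.1, 92.2, 66.6 and 78.2 TPM at days 0, 1, 3, 5 and 7 in OKS + DsRed and 53.3, 38.2, 31.1, 42.0 and 47.1 TPM in OKS + FoxO6. All 5 FoxO6 values lay below all 5 DsRed values, and Dhcr7 was 1.86-fold lower (log2 fold change -0.89, SE 0.15, adjusted p = 0.003). Its widest gap was at day 3, when the FoxO6 library held 0.338 of the DsRed level in TPM and 0.387 of it in CPM, which scales counts to library size but not to transcript length.

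Sqle, the squalene epoxidase, was at 202, 119, 118, 141 and 113 TPM at days 0, 1, 3, 5 and 7 in OKS + DsRed and 143, 82.3, 64.3, 78.9 and 79.7 TPM in OKS + FoxO6, and it was 1.55-fold lower with FoxO6 (log2 fold change -0.63, SE 0.11, adjusted p = 0.00466). Fdps, which joins isoprenoid units into farnesyl diphosphate, was the enzyme with the highest level and was at 749.7, 491, 268, 265 and 259 TPM at days 0, 1, 3, 5 and 7 in OKS + DsRed and 408, 318, 219, 196 and 228 TPM in OKS + FoxO6. Its fitted difference was 1.44-fold (log2 fold change -0.52, SE 0.14, adjusted p = 0.0348), and the gap was widest at day 0, where it stood at 749.7 against 408 TPM. Lss, which folds squalene epoxide into lanosterol, was at 189, 82.1, 63.8, 66.1 and 61.6 TPM at days 0, 1, 3, 5 and 7 in OKS + DsRed and 131, 55.3, 47.3, 65.4 and 27.1 TPM in OKS + FoxO6, and it was 1.38-fold lower (log2 fold change -0.47, SE 0.12, adjusted p = 0.0297). For Lss the 2 arms were nearly equal at day 5, and its day 7 ratio of FoxO6 to DsRed was 0.441 in TPM but 0.733 in CPM, since the effective length that RSEM gave Lss differed up to 1.60 times between libraries.

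Hsd17b7 (ENSMUSG00000026675, chromosome 1 of GRCm38, 169949535 to 169969241, minus strand), a ketoreductase of sterol demethylation, was the 1 gene of the 33 that was higher with FoxO6. It was at 73.7, 64.9, 37.2, 30.5 and 30.6 TPM at days 0, 1, 3, 5 and 7 in OKS + DsRed and 126, 87.7, 81.6, 76.5 and 44.2 TPM in OKS + FoxO6. The FoxO6 library was the higher on every day, by 2.19 times (TPM) at day 3 and 2.51 times at day 5, and the fitted difference was 1.78-fold (log2 fold change 0.83, SE 0.17, adjusted p = 0.00777). The other enzymes that act on the same demethylation steps were not called: Msmo1 (log2 fold change -0.10, SE 0.14, adjusted p = 0.704) and Nsdhl (log2 fold change 0.09, SE 0.22, adjusted p = 0.833). The early enzymes Acat2, Mvk, Pmvk, Mvd and Idi1 had log2 fold changes of -0.40, -0.08, -0.34, -0.33 and -0.42, and none of these 5 was called. Fdft1, Cyp51, Ebp and Sc5d, which act from squalene formation onwards, were at -0.33, -0.35, 0.18 and -0.08 and were not called either.

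Of the 5 regulators, Srebf1 was lower and the other 4 were not called. Srebf1, which encodes the SREBP best known for fatty acid genes, was at 109, 117, 148, 232 and 171 TPM at days 0, 1, 3, 5 and 7 in OKS + DsRed and 77.6, 124, 100.4, 134 and 96.2 TPM in OKS + FoxO6. It was lower with FoxO6 on 4 of the 5 days in TPM and on all 5 in CPM, and was 1.44-fold lower in the fit (log2 fold change -0.53, SE 0.12, adjusted p = 0.0122). Srebf2, which encodes the SREBP best known for cholesterol genes, was at 140.5, 139, 161, 179 and 157 TPM at days 0, 1, 3, 5 and 7 in OKS + DsRed and 129, 100.4, 124, 135 and 131 TPM in OKS + FoxO6, and its levels were within 100 to 179 TPM in all libraries. Insig1, a retention protein, had a log2 fold change of 0.24, and Insig2 had one of 0.61 (adjusted p = 0.0849). Stard4, a carrier of sterol between membranes, was at -0.28.

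Of the 11 fatty acid genes, 6 were lower with FoxO6, none of the 11 was higher, and the median log2 fold change was -0.40. Scd1 (ENSMUSG00000037071, chromosome 19 of GRCm38, 44394455 to 44407879, minus strand) and Scd2 (ENSMUSG00000025203, chromosome 19 of GRCm38, 44293674 to 44306864, plus strand) encode desaturases that place the first double bond in stearate and palmitate, and they are neighbours on the chromosome. Scd1 was at 336, 316, 285, 363 and 292 TPM at days 0, 1, 3, 5 and 7 in OKS + DsRed and 235, 178, 144, 159 and 122 TPM in OKS + FoxO6. Every FoxO6 value lay below every DsRed value, and Scd1 was 1.97-fold lower (log2 fold change -0.98, SE 0.12, adjusted p = 0.000452), the fatty acid gene with the largest difference. Scd2 was at 1066, 918, 723, 891 and 681 TPM at days 0, 1, 3, 5 and 7 in OKS + DsRed and 742, 556, 514, 503 and 330.4 TPM in OKS + FoxO6. The FoxO6 library was the lower on each day, the ranges overlapped only where FoxO6 at day 0 exceeded DsRed at days 3 and 7, and Scd2 was 1.67-fold lower (log2 fold change -0.74, SE 0.10, adjusted p = 0.00106). Scd1 and Scd2 are close paralogs, and how RSEM divided their shared reads was not checked here.

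Fads2, the delta-6 desaturase of long-chain fatty acids, was at 162, 136, 97.5, 144 and 97.4 TPM at days 0, 1, 3, 5 and 7 in OKS + DsRed and 106, 95.9, 59.6, 79.2 and 58.6 TPM in OKS + FoxO6 and was 1.64-fold lower with FoxO6 (log2 fold change -0.71, SE 0.13, adjusted p = 0.00426). Its neighbour Fads1, the delta-5 desaturase, was not called (log2 fold change -0.12, SE 0.14, adjusted p = 0.649). Acaca, the carboxylase that makes malonyl-CoA, was at 42.8, 35.0, 27.9, 28.1 and 20.6 TPM at days 0, 1, 3, 5 and 7 in OKS + DsRed and 41.2, 34.2, 19.1, 19.7 and 11.2 TPM in OKS + FoxO6, and it was 1.39-fold lower (log2 fold change -0.47, SE 0.13, adjusted p = 0.0362). Fasn, the fatty acid synthase, was at 532, 262, 256, 279 and 209 TPM at days 0, 1, 3, 5 and 7 in OKS + DsRed and 357, 193, 193, 201 and 229.8 TPM in OKS + FoxO6. Fasn was 1.32-fold lower (log2 fold change -0.40, SE 0.11, adjusted p = 0.0319), with the order of the arms turned at day 7 in TPM though not in CPM. Elovl6, which lengthens palmitate, was at 68.6, 72.4, 51.5, 48.8 and 46.9 TPM at days 0, 1, 3, 5 and 7 in OKS + DsRed and 57.8, 48.5, 44.8, 37.5 and 33.2 TPM in OKS + FoxO6 and was 1.34-fold lower (log2 fold change -0.42, SE 0.11, adjusted p = 0.0244). Elovl1, an elongase of very long chains, was the fatty acid gene higher with FoxO6 on all 5 days, but it missed the threshold (log2 fold change 0.32, SE 0.13, adjusted p = 0.116). Acly, Elovl5 and Acsl3, which supply acetyl-CoA, lengthen polyunsaturated chains and activate fatty acids, were at -0.10, -0.18 and -0.33 and were not called.

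The count of genes lower with FoxO6 was 8 without day 0, 7 without day 1, 6 without day 3, 6 without day 5 and 16 without day 7. The share of all genes tested called lower in these fits was 7.34%, 4.90%, 2.89%, 2.72% and 6.95% in turn. Scd1 was called under each of the 10 alternatives run, Hmgcs1, Sqle, Dhcr7, Hsd17b7, Scd2 and Fads2 were lost under 1 each, and Srebf1, Fdps, Lss, Fasn, Acaca and Elovl6 under 3, 5, 5, 5, 6 and 7.

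**Figure D3:**
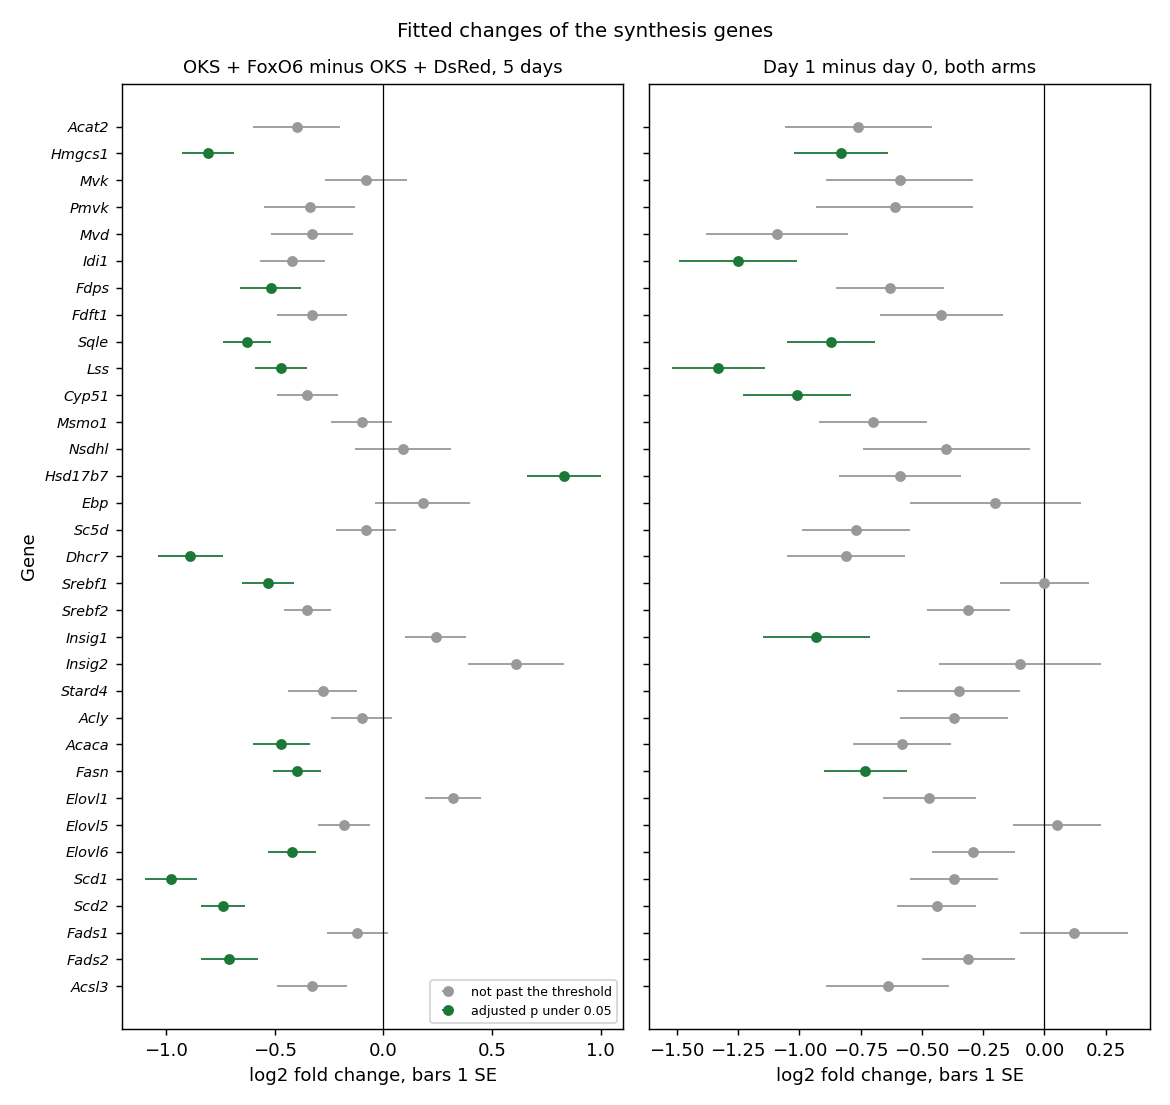
Fitted log2 fold change of each of the 33 genes (rows) for FoxO6 minus DsRed over 5 days (left) and for day 1 minus day 0 over both arms (right), with bars of 1 standard error and green points for an adjusted p under 0.05. On the left 12 green points lie below 0 and that of Hsd17b7 above it, and on the right the 7 green points all lie below 0.

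The next comparisons asked how the genes moved with time, taking the change shared by the 2 arms against how it differed between them. Between day 0 and day 1, 7 of the 33 genes fell and 0 rose, over a background of 1.95% of genes tested called lower and 2.25% called higher. The median log2 fold change was -0.59, against 0.00 over all genes tested. All 17 cholesterol enzymes had a value below 0, with a median of -0.76, and 5 of them were called, with Insig1 and Fasn as the remaining called genes. DESeq2 also called none of the 33 higher in this step, against 2.62% of all genes it tested. At an unadjusted p under 0.05 there were 18 of the 33, against 19.4% of all genes tested.

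Lss fell 2.52-fold from day 0 to day 1 (log2 fold change -1.33, SE 0.19, adjusted p = 0.00436). Idi1, the isomerase of the isoprenoid unit, was at 295, 105, 72.1, 88.4 and 83.4 TPM at days 0, 1, 3, 5 and 7 in OKS + DsRed and 161, 91.5, 57.9, 71.6 and 70.0 TPM in OKS + FoxO6. In both arms the day 0 library stood above all 4 later ones, 2.82 times above day 1 in OKS + DsRed and 1.76 times above it in OKS + FoxO6, and the shared fall was 2.38-fold (log2 fold change -1.25, SE 0.24, adjusted p = 0.0163). Cyp51, the lanosterol demethylase, was at 196, 98.7, 67.6, 88.7 and 66.7 TPM at days 0, 1, 3, 5 and 7 in OKS + DsRed and 120.5, 70.7, 61.2, 75.0 and 69.7 TPM in OKS + FoxO6 and fell 2.02-fold (log2 fold change -1.01, SE 0.22, adjusted p = 0.0297). Sqle fell 1.83-fold (log2 fold change -0.87, SE 0.18, adjusted p = 0.0235) and Hmgcs1 fell 1.78-fold (log2 fold change -0.83, SE 0.19, adjusted p = 0.036).

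Insig1, itself a target of SREBP, was at 191, 82.9, 100.2, 149 and 117 TPM at days 0, 1, 3, 5 and 7 in OKS + DsRed and 176, 122, 152, 149 and 124 TPM in OKS + FoxO6. Its day 0 value was the highest in each arm, and it fell 1.91-fold to day 1 (log2 fold change -0.93, SE 0.22, adjusted p = 0.0421). Fasn fell 1.66-fold (log2 fold change -0.73, SE 0.17, adjusted p = 0.0351). Mvd, the mevalonate diphosphate decarboxylase, was at 134, 60.0, 40.4, 48.9 and 29.7 TPM at days 0, 1, 3, 5 and 7 in OKS + DsRed and 77.7, 46.7, 47.3, 35.5 and 31.0 TPM in OKS + FoxO6, and its day 1 value missed the threshold (log2 fold change -1.09, SE 0.29, adjusted p = 0.0606). Srebf1 (0.00), Elovl5 (0.05) and Fads1 (0.12) were the 3 genes with a log2 fold change above 0, and none of them was called.

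These calls rested on the day 0 and day 1 libraries, of which each arm has 1. Without OKS + DsRed at day 0 only Lss stayed called (log2 fold change -1.07, adjusted p = 0.0453), without either day 1 library 0 genes were called, without OKS + FoxO6 at day 0 there were 5, and without either day 7 library 11. Leaving out OKS + DsRed or OKS + FoxO6 at day 3 gave 3 and 2, and leaving out either day 5 library gave 3. The share of all genes tested called lower moved as well: it was 0.694% without OKS + DsRed at day 0 and 0.823% without OKS + FoxO6 at day 0. It was 0.267% and 0.304% without the OKS + DsRed and OKS + FoxO6 libraries of day 1, 1.24% to 1.40% without a day 3 or day 5 library, and 3.64% and 3.63% without a day 7 library.

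Over the whole course, from day 0 to day 7, 19 of the 33 genes fell and 0 rose, over a background of 10.1% called lower and 11.2% called higher, with a median log2 fold change of -0.79 against 0.03 over all genes tested. The 19 were 12 of the 17 cholesterol enzymes and 7 of the 11 fatty acid genes, while 0 of the 5 regulators was called. The fitted falls in the cholesterol enzymes were 3.33-fold for Mvd (log2 fold change -1.73, SE 0.30, adjusted p = 0.00172), 3.17-fold for Lss (log2 fold change -1.66, SE 0.20, adjusted p = 0.000167), 2.95-fold for Msmo1 (log2 fold change -1.56, SE 0.22, adjusted p = 0.000533) and 2.92-fold for Hsd17b7 (log2 fold change -1.54, SE 0.26, adjusted p = 0.00162). Idi1, Acat2, Cyp51, Fdps, Sc5d, Nsdhl, Hmgcs1 and Sqle fell by between 2.83-fold and 1.73-fold. Msmo1, the sterol methyl oxidase, was at 421, 245, 138, 116 and 123 TPM at days 0, 1, 3, 5 and 7 in OKS + DsRed and 313, 237, 149, 126 and 104 TPM in OKS + FoxO6, so that the day 7 levels were below those of day 0 in each arm.

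Among the fatty acid genes, Acaca fell 2.32-fold (log2 fold change -1.21, SE 0.21, adjusted p = 0.00164) and Fasn 2.10-fold (log2 fold change -1.07, SE 0.17, adjusted p = 0.00102) from day 0 to day 7. Acly, the ATP citrate lyase, was at 241, 187, 153, 149 and 162 TPM at days 0, 1, 3, 5 and 7 in OKS + DsRed and 242, 217, 189, 145 and 95.2 TPM in OKS + FoxO6 and fell 1.89-fold (log2 fold change -0.92, SE 0.22, adjusted p = 0.0116). Scd2, Fads2, Elovl1 and Elovl6 fell 1.83-fold, 1.69-fold, 1.65-fold and 1.51-fold. Scd1, the gene with the largest difference between the arms among the fatty acid genes, missed the threshold with time (log2 fold change -0.55, SE 0.18, adjusted p = 0.056), as did Fdft1, Dhcr7 and Ebp among the later cholesterol enzymes, at -0.14, -0.13 and 0.39. The count of 19 was 14 without OKS + DsRed at day 0, where 6.76% of all genes tested were called lower, and 19 without OKS + FoxO6 at day 7, where 8.72% were. Without OKS + DsRed at day 0, Acat2 (-0.95), Nsdhl (-0.51), Acly (-0.88), Elovl1 (-0.59), Elovl6 (-0.60) and Fads2 (-0.73) were no longer called. Mvd, Lss, Msmo1 and Hsd17b7 then had log2 fold changes of -1.32, -1.40, -1.23 and -1.15. Without OKS + FoxO6 at day 7, Acly (-0.60) and Elovl1 (-0.74) were no longer called. Mvd, Lss, Msmo1 and Hsd17b7 were then at -2.05, -1.67, -1.65 and -1.38.

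After day 1 no step was called for any of the 33 genes. From day 1 to day 3, 0 genes passed, over a background of 1.42% called in either direction, and 5 had an unadjusted p under 0.05, against 11.5% of all genes tested. From day 3 to day 5, 0 passed over a background of 0.0364%, and 1 had an unadjusted p under 0.05, against 6.95%. From day 5 to day 7, 0 passed over a background of 0.0%, and 0 had an unadjusted p under 0.05, against 8.32%. DESeq2 also called 0 of the 33 in each of these 3 steps. Day 0 was the highest day in OKS + DsRed for 25 genes and in OKS + FoxO6 for 24, and it was the highest in both arms for 21, against 10.9% of the 14837 expressed genes.

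**Figure D4:**
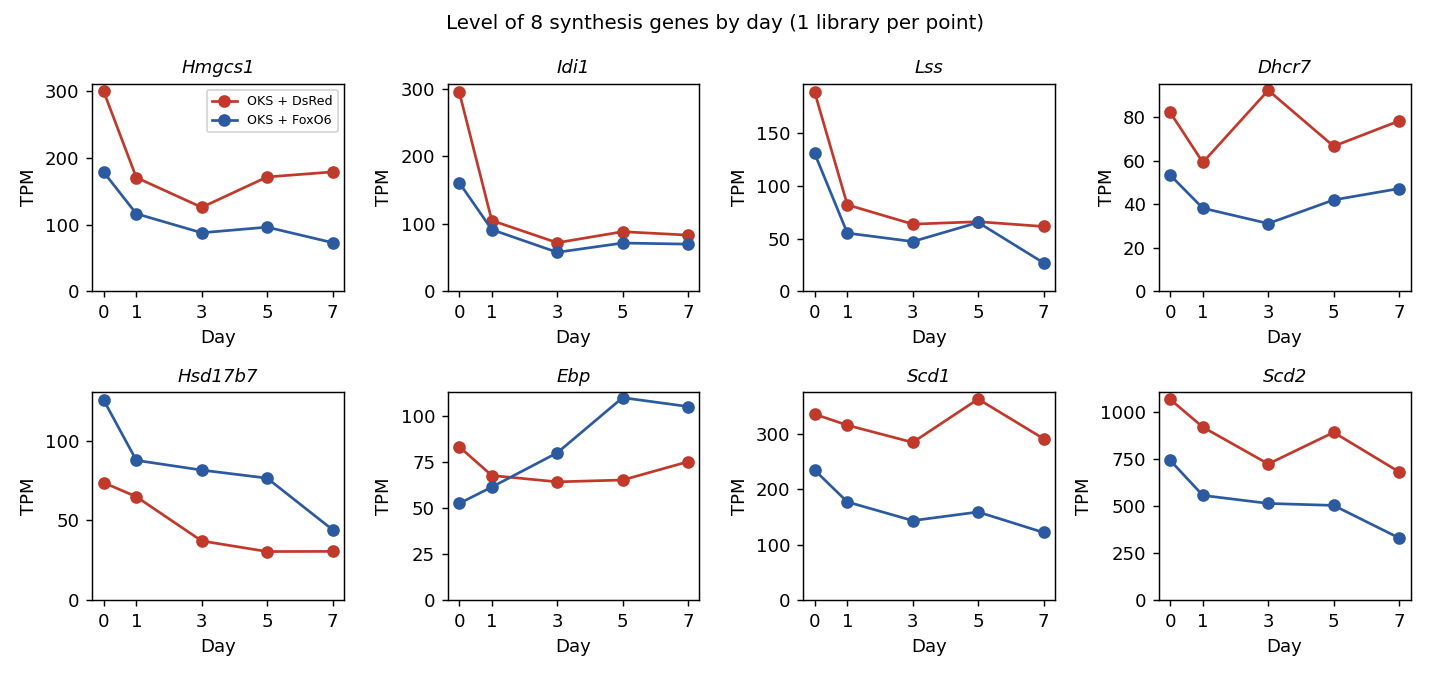
Level in TPM by day for 8 of the genes, with 1 library per point, OKS + DsRed in red and OKS + FoxO6 in blue. Idi1 and Lss drop from day 0 to day 1 in both arms, Scd1, Scd2 and Dhcr7 lie lower with FoxO6 on every day, Hsd17b7 lies higher, and the curves of Ebp cross.

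The difference between the arms on each day was also read directly, as log2(TPM + 1) in OKS + FoxO6 minus OKS + DsRed, a scale on which changes of low genes are understated, with no test since each value compares 2 libraries. For the 17 cholesterol enzymes the median difference over days 0, 1, 3, 5 and 7 was -0.70, -0.44, -0.29, -0.24 and 0.06 in turn. At day 0, 15 of the 17 were lower with FoxO6, and at day 7, 8 of 17 were. For the 11 fatty acid genes the median difference was -0.32, -0.10, -0.20, -0.37 and -0.49 on the same days. With the trend of the difference with transcript length removed on each day, the fatty acid medians were -0.57 at day 0 and -0.22 at day 7, so the order of these 2 days turned. Those of the cholesterol enzymes were -0.80 and 0.12. The 5 regulators had medians of -0.13, 0.09, -0.38, -0.16 and -0.26, and the sign of their day 1 and day 7 medians depended on the processing, as given in the closing section. Over all 14837 expressed genes the median was 0.09 at day 0, 0.00 at days 1, 3 and 5 and -0.14 at day 7.

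**Figure D5:**
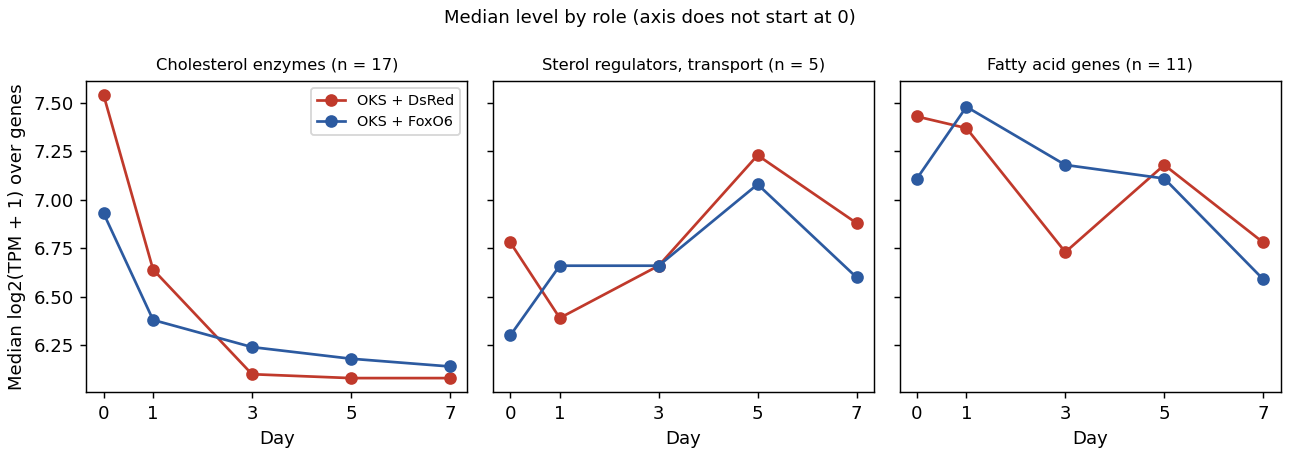
Median of log2(TPM + 1) over the genes of each role (17 cholesterol enzymes, 5 regulators and 11 fatty acid genes) by day, with OKS + DsRed in red and OKS + FoxO6 in blue and 1 library per point. The cholesterol enzymes go from 7.54 to 6.08 in OKS + DsRed and from 6.93 to 6.14 in OKS + FoxO6, and the vertical axis does not start at 0.

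Few genes reached 2-fold between the arms on a day. At day 0, Insig2 was over 2-fold higher with FoxO6 (28.2 against 12.9 TPM, 1.95 times in CPM) and 0 were over 2-fold lower, over backgrounds of 10.4% higher and 6.32% lower among the expressed genes. At day 1, 0 genes passed in either direction, over backgrounds of 7.95% and 9.33%. At day 3, Hsd17b7 was over 2-fold higher and Dhcr7 over 2-fold lower, over backgrounds of 8.16% and 11.7%. At day 5, Hsd17b7 was over 2-fold higher and Scd1 over 2-fold lower, over backgrounds of 10.2% and 11.4%. At day 7, 0 genes were over 2-fold higher, over a background of 8.25%, and 5 were over 2-fold lower, over a background of 16.3%, namely Hmgcs1, Lss, Stard4, Scd1 and Scd2. Of these 5, the ratio of FoxO6 to DsRed in CPM was 0.454 for Hmgcs1 and 0.466 for Scd1, and it was 0.733 for Lss, 0.592 for Stard4 and 0.539 for Scd2. With the length trend removed, only Hmgcs1 of these 5 was past 2-fold at day 7 (difference in log2(TPM + 1) of -1.05). Lss was then at -0.81, Stard4 at -0.66, Scd1 at -0.84 and Scd2 at -0.59. Idi1 was past 2-fold lower at day 0 with the trend removed (-1.04).

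Whether the difference between the arms changed steadily with day was tested with a slope, in log2 units per day. Ebp (ENSMUSG00000031168, chromosome X of GRCm38, 8185329 to 8193512, minus strand), the sterol isomerase, was the 1 gene of the 33 called, over a background of 1.21% of genes with a slope called higher and 0.765% called lower. Ebp was at 83.2, 67.5, 64.1, 65.1 and 75.0 TPM at days 0, 1, 3, 5 and 7 in OKS + DsRed and 52.4, 61.3, 79.8, 109.7 and 105 TPM in OKS + FoxO6. In OKS + FoxO6 the 4 later libraries were all above day 0, while in OKS + DsRed all 4 were below it, and the slope was 0.22 per day (SE 0.05, adjusted p = 0.0405). Of the 17 cholesterol enzymes, 16 had a slope above 0, with a median of 0.11 per day, against 0.01 over all genes tested, and Hmgcs1 was the exception (slope -0.05, adjusted p = 0.511). Nsdhl, at 0.22 per day (SE 0.05, adjusted p = 0.0526), was close to Ebp but missed the threshold. Its ratio of FoxO6 to DsRed in TPM was 0.596 at day 0 and 1.574 at day 7. Fdft1 (0.15, adjusted p = 0.0662) and Acat2 (0.18, adjusted p = 0.0759) missed it as well. The fatty acid genes had a median slope of -0.01 per day. The call for Ebp was lost with each of the 5 days left out in turn (adjusted p from 0.0536 without day 3 to 0.23 without day 0), with the length trend removed (adjusted p = 0.059) and with DESeq2 (adjusted p = 0.192). The slope stayed between 0.17 and 0.28 per day in these settings. Over all genes tested, 0.776% and 0.253% had a slope called higher and lower without day 0, and 0.404% and 0.331% without day 7.

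For 11 of the 33 genes the effective length that RSEM assigned differed by at least 1.2 times between libraries, which lets TPM and counts move apart. The ratio of the highest to the lowest was 2.22 for Insig2, 1.72 for Fasn, 1.60 for Lss, 1.54 for Srebf1, 1.49 for Sc5d and 1.48 for Hsd17b7. Insig2 showed this most: its TPM in OKS + DsRed was 12.9 at day 0 and 24.05 at day 1, while its CPM in these libraries was 19.05 and 17.81. Its fitted change in counts, shared by both arms, was -0.10 (adjusted p = 0.915). For Hmgcs1, Scd1, Scd2, Fads1, Fads2, Fdft1 and Srebf2 this ratio was 1.00.

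Other genes of synthesis and sterol handling were read from lists of the same pathways, and their counts stand beside the same backgrounds over all genes tested: 6.93% higher and 7.13% lower with FoxO6, 2.25% and 1.95% from day 0 to day 1, and 11.2% and 10.1% from day 0 to day 7. Of 27 further synthesis genes, 21 were tested, and 3 were lower and 0 higher with FoxO6, with a median log2 fold change of -0.03. Lbr, a sterol reductase of the nuclear envelope, and Acacb, the mitochondrial acetyl-CoA carboxylase, were among those lower with FoxO6, at -0.81 and -0.99. In this list 0 of 21 genes was called from day 0 to day 1. From day 0 to day 7, 5 fell, with Fads3 (-2.16), Acss2 (-1.50) and Hacd1 (-1.24) the furthest, and Acacb (2.25) and Elovl7 (2.78) rose from day 0 levels of at most 1.15 TPM. Without OKS + DsRed at day 0, Acss2 (-0.94), Hacd1 (-0.85) and Acacb (1.90) were no longer called. Without OKS + FoxO6 at day 7, all of these 5 named genes stayed called.

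Of 15 genes of SREBP processing and sterol uptake, 13 were tested, and 2 were higher and 1 lower with FoxO6, with a median log2 fold change of 0.10. Npc2, a lysosomal carrier of cholesterol (0.73), was among those higher, and Erlin1 was lower (-0.57). From day 0 to day 1, 1 fell and 0 rose, and the 1 that fell was no longer called without OKS + DsRed at day 0. From day 0 to day 7, 3 fell and 2 rose: Erlin1 was among those that fell (-0.79), and Soat1, which esterifies cholesterol, and Syvn1 rose (0.69 and 0.73). Erlin1 and Syvn1 were no longer called without either of the libraries that stood apart (-0.85 and 0.90 without OKS + DsRed at day 0, -0.57 and 0.46 without OKS + FoxO6 at day 7). Soat1 was no longer called without OKS + DsRed at day 0 (0.49). Of 9 genes of LXR signalling and cholesterol efflux, 5 were tested. Abca1, a cholesterol exporter, was at 32.6, 226, 213, 153 and 89.0 TPM at days 0, 1, 3, 5 and 7 in OKS + DsRed and 47.1, 124, 146, 153 and 50.7 TPM in OKS + FoxO6 and rose 3.83-fold from day 0 to day 1 (log2 fold change 1.94, SE 0.28, adjusted p = 0.00395). Without OKS + DsRed at day 0 its log2 fold change was 1.51 (adjusted p = 0.0327). Apoe, the apolipoprotein, was at 18.1, 7.60, 26.6, 44.1 and 73.8 TPM at days 0, 1, 3, 5 and 7 in OKS + DsRed and 29.7, 24.2, 81.2, 106 and 125 TPM in OKS + FoxO6, and it was 2.26-fold higher with FoxO6 (log2 fold change 1.17, SE 0.20, adjusted p = 0.00374).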

How the data were processed

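Sequenced reads of the 10 libraries were aligned by the authors to the GENCODE M13 mouse transcriptome (GRCm38) with RSEM and bowtie2. The deposited expected counts are RSEM estimates per gene without normalization, and the deposited TPM values were computed by RSEM from the same alignments. The labels name a VAHTS library kit and the methods a TruSeq kit. The expected counts of genes in both the series table (48476 genes) and the library files (50600 genes) were identical, and at most 0.312% of a library's counts lay outside the table. Libraries were grouped by the arm and day in their titles.

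Expected counts were rounded and fitted over all genes with edgeR 4.0.16 in R 4.3.3 (TMM, filterByExpr by arm, quasi-likelihood test, Benjamini-Hochberg adjustment over the 10977 genes that passed). The additive model held arm and day as factors (4 residual degrees of freedom, common dispersion 0.0336), and the slope model added arm by numeric day (3 residual degrees of freedom). Differences on single days used log2(TPM + 1) with a pseudocount of 1, over 14837 genes with a mean of at least 1 TPM, and 2-fold as the limit. Python 3.11.15, numpy 2.4.6, pandas 2.3.3 and matplotlib 3.10.9 were used for these and for the figures. The additive fit was also run on simulated counts with known changes. Those counts had a lower dispersion than these data and no arm difference that varied by day. They therefore do not show how the fits behave at the spread of these data. Alternatives were DESeq2 size factors in edgeR, no filter on low counts, DESeq2 1.42.0, an offset for transcript length, no day term, each day or library left out, a pseudocount of 0.1, CPM in place of TPM and a mean of at least 5 TPM. Promoters came from RefSeq (GRCm38.p6) and gene positions from GENCODE M21 (GRCm38).

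The 33 genes and the other gene lists were chosen with earlier results of these data known. All 33 genes are named, with Foxo6 as a check of the labels. From each other list, up to 3 called genes per direction and comparison with the largest change were named, and some of these are not reported here. Genes of the lists named beyond this (among them Erlin1 at day 7, Cd68 and the marker genes given by level alone) were chosen after their values were seen.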

Additional observations from a re-analysis of the deposited data

Results flagged for a closer look

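Ebp, the sterol isomerase, was flagged because its difference between the arms changed with day: the slope of FoxO6 minus DsRed was 0.22 log2 units per day (edgeR's quasi-likelihood test, SE 0.05, adjusted p = 0.0405). It was also flagged because every later day lay above day 0 in OKS + FoxO6 and below day 0 in OKS + DsRed. In OKS + FoxO6 its day 7 level was 2.0 times its day 0 level in TPM (104.9 against 52.4), while in OKS + DsRed the levels were 75.0 and 83.2 TPM. This opposite order was not tested beyond the slope, and the slope was past the threshold in 2 of its 9 alternatives and not past it in the other 7.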

How the results depend on the processing

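Counts are of the 33 synthesis genes past an adjusted p of 0.05. For the shift between the arms, the 12 genes lower became 1 with no day term and 6 to 16 with a day left out, and the 1 higher became 2 with no filter on low counts and 0 with no day term. With no day term the change with time enters the residual spread. For day 1 minus day 0, the 7 genes lower became 12 with no filter, 11 with the length trend removed and 0 to 11 with a library left out. For day 3 minus day 1, the 0 genes lower became 2 with no filter, where 0.935% of all genes tested were called lower, against 0.51% in the main fit. For day 7 minus day 0, the 19 genes lower became 14 to 20 with a library left out and 17 to 23 under the other alternatives. For the slope, the 1 gene higher became 4 with no filter, 2 with the length trend removed, 0 with DESeq2 and 0 to 1 with a day left out. Ebp, the gene called, was not among those called with the length trend removed or with a day left out. No setting turned the direction of a called gene.

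Of the median differences on single days, those of the cholesterol enzymes moved by less than their spread under each alternative. The regulators reversed at day 1 with CPM in place of TPM (0.09 to -0.15), moved at day 3 with CPM (-0.38 to -0.08), and with the length trend removed, an alternative chosen after seeing the data, moved at day 0 (-0.13 to -0.40) and reversed at day 7 (-0.26 to 0.15). Their change from day 0 to day 7 in OKS + FoxO6 reversed with CPM (0.02 to -0.28). The fatty acid genes moved with the length trend removed at day 0 (-0.32 to -0.57) and day 7 (-0.49 to -0.22). The causes of these changes were not tested.

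Over all genes tested, the arm shift called 761 higher and 783 lower, against 124 and 44 with no day term, 1148 and 1101 with no filter, and 366 and 297 without day 5. Day 1 minus day 0 called 247 and 214, against 604 and 494 with no filter, 294 and 343 with the length trend removed, and 29 and 30 without OKS + DsRed at day 1. The slope called 133 and 84, against 319 and 309 with no filter, 78 and 57 with DESeq2, 86 and 28 without day 0 and 44 and 36 without day 7. The day term pairs the arms by day. The labels give no replicate numbers to block on, and with 1 library per arm and day nothing here estimates the spread between infections.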

Other observations

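Genes of the opposite process, fatty acid oxidation, were also read. Of 22 such genes, 20 were tested, and 1 was higher and 1 lower with FoxO6, with a median log2 fold change of 0.03. Over all genes tested, 6.93% were called higher and 7.13% lower. Hadhb, a subunit of the mitochondrial trifunctional protein, was higher (log2 fold change 0.65, SE 0.15, adjusted p = 0.0171), and Hadh, the short-chain hydroxyacyl-CoA dehydrogenase, was lower (log2 fold change -0.82, SE 0.13, adjusted p = 0.00226). Hadh was at 60.9, 72.6, 81.1, 77.7 and 86.0 TPM at days 0, 1, 3, 5 and 7 in OKS + DsRed and 39.4, 44.4, 46.4, 44.6 and 42.6 TPM in OKS + FoxO6, with all 5 FoxO6 values below all 5 DsRed values. From day 0 to day 1, 2 of the 20 rose and 0 fell, over a background of 2.25% higher and 1.95% lower, with a median of 0.23: Acadl, a long-chain acyl-CoA dehydrogenase (log2 fold change 1.26, SE 0.30, adjusted p = 0.0411), and Cpt1c, of the carnitine palmitoyltransferase family (log2 fold change 1.05, SE 0.22, adjusted p = 0.0261). The slope of Acadl, 0.20 per day, was also called, as 1 of the 20 genes, over a background of 1.21% called higher and 0.765% lower. From day 0 to day 7, 1 of the 20 rose and 2 fell, over a background of 11.2% called higher and 10.1% lower. Cpt1c rose (0.70), and Acadvl (-0.81) and Etfa (-0.75) fell. Without OKS + DsRed at day 0, Acadl (1.70) and Cpt1c (1.06) were no longer called at day 1, nor Cpt1c (0.70) and Acadvl (-0.69) at day 7. Without OKS + FoxO6 at day 7, Cpt1c (0.44) and Etfa (-0.63) were no longer called at day 7.

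Markers of other cell types were also read. Of 8 adipocyte markers only Lpl, a lipase that other cells also make, passed the filter, and it was 3.31-fold lower with FoxO6 (log2 fold change -1.73, SE 0.22, adjusted p = 0.00064), at 84.1, 306, 107, 46.9 and 19.4 TPM at days 0, 1, 3, 5 and 7 in OKS + DsRed and 36.9, 64.9, 19.6, 15.4 and 8.48 TPM in OKS + FoxO6. The adipocyte sum was 23.2 to 311 TPM in OKS + DsRed and 10.2 to 68.5 TPM in OKS + FoxO6. Fabp4, Pparg and Cebpa reached at most 9.82, 9.39 and 8.14 TPM in a library. Lep and Cidec were at 0 in all 10 libraries, and Adipoq and Plin1 reached at most 2.16 and 0.33 TPM. The 6 hepatocyte markers summed to 0.0 to 10.4 TPM in OKS + DsRed and 0.0 to 11.8 TPM in OKS + FoxO6, and 0 of the 6 was tested. The 6 macrophage markers summed to 15.1 to 57.1 and 22.3 to 29.4 TPM, and Cd68, the 1 tested, was not called between the arms. Cd68 reached 52.57 TPM and made up most of these sums. Lyz2 and Itgam reached at most 6.17 and 4.36 TPM, and Ptprc, Adgre1 and Csf1r at most 0.6, 0.59 and 0.49 TPM. The 5 endothelial markers summed to 18.7 to 55.3 and 30.1 to 104 TPM, and Tek, the 1 tested, was higher with FoxO6 (log2 fold change 0.95, SE 0.13, adjusted p = 0.00114). Tek reached 103.66 TPM and made up most of these sums, so they do not describe the list as a set. Cdh5, Tie1 and Cldn5 reached at most 1.24, 1.58 and 2.28 TPM. Pecam1 was at 5.73 TPM in OKS + DsRed and 0.76 TPM in OKS + FoxO6 at day 7. Of the 8 fibroblast markers, 7 fell from day 0 to day 7 and 0 rose, over a background of 10.1% called lower and 11.2% higher. Their median log2 fold change was -2.98, against 0.03 over all genes tested. Without OKS + DsRed at day 0, Col1a2 (-1.05) was the 1 of these 7 no longer called, and without OKS + FoxO6 at day 7 all 7 stayed called. Of the same 8 markers, Dcn (1.15) and Postn (0.69) were higher and Col3a1 (-0.64) lower with FoxO6, over a background of 6.93% higher and 7.13% lower. The part of these markers in the results on the synthesis genes was not tested.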
